A study of Mus musculus with 38 samples.

Results

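Haptoglobin (Hp), lipoprotein lipase (Lpl), adiponectin (Adipoq), Pparg, Cebpa, Cebpb, complement factor D (Cfd), Apoe, Cd36 and Fabp4 are genes of fat cell formation and of lipid transport. They were taken by symbol as a list of 10 genes, of which 9 were rows of the deposited table of 13260 genes; Cfd was not analysed here. Hp was chosen by its rise in stromal progenitors of myeloma-bearing mice, so its values in that comparison are given as a description, with no test. The other genes were listed by name, with results of these data already known.

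The 38 libraries came from C57Bl/KaLwRijHsd mice that at 8-10 weeks of age received either 5TGM1-GFP cells, a mouse myeloma line carrying green fluorescent protein, or vehicle, and that were culled 23 days later without any drug treatment. Cells released from the bone surface that lacked the blood cell markers CD45 and Ter119 were sorted as endothelial cells where they carried CD31. Those without CD31 were sorted as stromal progenitors, which carried Sca1 and lacked ALCAM, or as osteoprogenitors, which carried ALCAM and lacked Sca1. Healthy and myeloma-bearing mice each gave 5 endothelial, 5 stromal progenitor and 4 osteoprogenitor libraries, and GFP+ myeloma cells gave 5 libraries from the bone lining and 5 from the central marrow. Each library held 100 cells and is named below by the letter of its code, which is C, L, M, N or O for healthy and D, E, G, I or J for myeloma-bearing mice. The labels do not state that each library is a separate mouse, so p-values measure the spread between these libraries, and in a pool of 100 cells fewer cells of a type cannot be told apart from less RNA per cell. All tumours derived from a single cell line.

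Fat cells and osteoblasts arise in bone marrow from shared mesenchymal progenitors. C/EBP beta acts early in fat cell formation and turns on PPAR gamma and C/EBP alpha, which hold the fat cell programme in place, while adiponectin and complement factor D are secreted products of that programme. Lipoprotein lipase releases fatty acids from circulating lipoproteins on the surface of capillaries, CD36 takes fatty acids up, FABP4 carries them inside the cell, and apolipoprotein E carries lipid between cells. Haptoglobin binds free haemoglobin and is an acute phase protein made by the liver, by fat cells and by neutrophil precursors.

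Levels, given below as RPKM for each lettered library, are the deposited reads scaled to gene length and library size, and differences are given in log2(RPKM + 1), which understates changes of low genes. A difference was called when the adjusted p of limma, over every gene that exceeded 1 RPKM in 4 or more compared libraries, was below 0.1 and its size was above 1. Reads on genes per library ranged from 9735031 to 34883291, and 3 reads of Hp corresponded to between 0.0646 and 0.220 RPKM. The summed level of 10 endothelial markers was 2160 to 4533 RPKM in endothelial libraries and at most 9.68 in stromal progenitors and osteoprogenitors. The summed level of 6 neutrophil genes was 7333 RPKM in library L of healthy and 8081 in library E of myeloma-bearing stromal progenitors, and at most 179.8 in the other 26 libraries of these 3 populations. Dcn, a matrix gene of mesenchymal cells, was 8817 RPKM or more in every stromal progenitor and osteoprogenitor library and at most 57.3 in endothelial libraries.

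All 9 genes are protein coding in the GENCODE annotation of GRCm38, the build the submitters named. Hp was annotated at chr8:109575128-109579172 and Lpl at chr8:68880491-68907448, Adipoq at chr16:23146536-23158028 and Fabp4 at chr3:10204088-10208576. Apoe was at chr7:19696109-19699188, Cebpa at chr7:35119293-35121928, Cd36 at chr5:17781690-17888801, Pparg at chr6:115360951-115490399 and Cebpb at chr2:167688915-167690418. Other annotated genes lie across Pparg, Cebpa and Cebpb on the opposite strand, and counting did not use strand. The overlap may have altered their levels in either direction, which was not tested.

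RefSeq promoters (GRCm38.p6) were at hand for 6 of the 9 genes: Adipoq, Apoe, Cd36, Pparg, Cebpa and Cebpb. The 250 bases before the start are printed for 3 genes. Limma called Adipoq and Apoe between healthy stromal progenitors and osteoprogenitors, and Cd36 between endothelial and mesenchymal cells. In these comparisons Adipoq and Cd36 were tested only through the populations in which they were high. The Adipoq call was made in 3 of 14 alternative settings. Capitals mark matches, on either strand, to TTNNGNAA, the core of a C/EBP site, or to AGGTCA, the hexamer that nuclear receptors such as PPAR gamma recognise.
Adipoq, chr16:23146286-23146535, plus strand: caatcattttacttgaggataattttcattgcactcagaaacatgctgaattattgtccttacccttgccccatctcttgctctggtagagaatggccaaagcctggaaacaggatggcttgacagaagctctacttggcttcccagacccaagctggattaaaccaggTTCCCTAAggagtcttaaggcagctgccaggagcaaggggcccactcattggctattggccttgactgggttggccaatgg
Apoe, chr7:19699189-19699438, minus strand: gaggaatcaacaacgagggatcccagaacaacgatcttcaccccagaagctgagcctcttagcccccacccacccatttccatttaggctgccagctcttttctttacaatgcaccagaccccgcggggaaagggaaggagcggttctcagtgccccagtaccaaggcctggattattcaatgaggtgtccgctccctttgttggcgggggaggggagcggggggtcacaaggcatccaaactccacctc
Cd36, chr5:17835897-17836146, minus strand: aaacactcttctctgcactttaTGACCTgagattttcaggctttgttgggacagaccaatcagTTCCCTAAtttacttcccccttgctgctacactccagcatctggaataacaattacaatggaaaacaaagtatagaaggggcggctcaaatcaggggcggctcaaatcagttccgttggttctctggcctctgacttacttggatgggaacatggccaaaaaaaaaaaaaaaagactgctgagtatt
The Adipoq window held 1 match to TTNNGNAA, beginning 81 bases before the start. The Cd36 window held 1 match to each motif, and the Apoe window held none. Of 32851 promoter windows of this length, 36.8% held TTNNGNAA and 14% held AGGTCA, so such matches are common. A match in these letters does not show that a factor binds there.

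Among the transcription factors, Pparg was the one called between cell types, and only in comparisons with endothelial cells. There Pparg was tested only through the endothelial libraries in which it was high. With no filter, only its call against osteoprogenitors of myeloma-bearing mice was made. In healthy endothelial cells it was 105 in C, 0 in L, 141 in M, 275 in N and 77.4 in O, and in those of myeloma-bearing mice 9.80 in D, 84.3 in E, 45.5 in G, 4.77 in I and 86.2 in J. Stromal progenitors had 8.97 in C, 0.0295 in L, 15.7 in M, 0.139 in N and 0.0226 in O in healthy mice and 0 in D, 4.41 in E, 13.6 in G, 0 in I and 2.70 in J in myeloma-bearing mice. The endothelial libraries thus ranged from 4.77 to 275 except for healthy library L, which held no read, and the stromal progenitor libraries were split between values of 2.70 or more and values of 0.139 or less. Osteoprogenitors had 14.6 in L, 0.0399 in M, 0.124 in N and 0.0822 in O in healthy mice and 0 in D, 0.0274 in G, 0 in I and 9.08 in J in myeloma-bearing mice. Myeloma cells were at 0 to 0.393.

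Cebpa, the partner of Pparg in mature fat cells, was low throughout. Its highest value was 10.7 RPKM, in library O of healthy endothelial cells, and the endothelial libraries of myeloma-bearing mice were at 0 to 0.0233. It reached 0 to 2.82 in healthy and 0 to 7.55 in myeloma-bearing stromal progenitors, and 0 to 7.11 and 0 to 8.34 in osteoprogenitors. Cebpb, the early factor, was detected in every library of all 8 groups. Stromal progenitors had 7.09 to 32.7 RPKM of Cebpb in healthy and 17.0 to 43.4 in myeloma-bearing mice, osteoprogenitors 2.78 to 42.9, endothelial cells 0.842 to 42.8 and myeloma cells 1.14 to 9.51.

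Adipoq, the hormone gene of fat cells, took either very low or high values. Healthy stromal progenitors had 0.782 in C, 0.143 in L, 0.113 in M, 0.892 in N and 1.09 in O, which is 3 to 30 reads, and those of myeloma-bearing mice had 328 in D, 48.7 in E, 1.31 in G, 0.781 in I and 519 in J. Libraries D, E and J of the myeloma-bearing group were far above all healthy libraries, whereas G was just above them and I was within their range. Healthy osteoprogenitors had 53.3 in L, 0.450 in M, 700.2 in N and 104 in O, and osteoprogenitors of myeloma-bearing mice had 156 in D, 445 in G, 495 in I and 292 in J. Healthy library M was the only osteoprogenitor library below 53.3 RPKM. Endothelial cells had 487 in C, 0.0924 in L, 346 in M, 152 in N and 501 in O in healthy and 0.174 in D, 244 in E, 172 in G, 97.9 in I and 274 in J in myeloma-bearing mice. Across the 28 endothelial, stromal progenitor and osteoprogenitor libraries 10 were at or below 1.31 RPKM and 18 at or above 48.7, with none between, and all 10 myeloma cell libraries were at or below 1.00.

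Hp showed a similar split. Healthy stromal progenitors had 2.79 in C, 0.0436 in L, 0.0345 in M, 0.0341 in N and 0 in O, and 4 of those 5 libraries held no more than 1 read. Stromal progenitors of myeloma-bearing mice had 64.2 in D, 47.7 in E, 19.1 in G, 18.9 in I and 23.6 in J. The 2 groups did not overlap, and Hp was chosen for this rise. The difference in log2(RPKM + 1) was 4.56 (SE 0.87). Without the 2 stromal progenitor libraries high in neutrophil genes it was 4.32, and with a pseudocount of 0.1 it was 7.01 and by voom-limma on recovered reads 8.32. Of the 2 libraries high in neutrophil genes, healthy library L held a single read of Hp and library E of the myeloma-bearing group held 47.7 RPKM, the second highest value of its group. The sort gated out cells with CD45, which neutrophils carry, and the part of neutrophil RNA in the Hp levels was not tested.

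Osteoprogenitors and endothelial cells did not enter the choice of Hp, and most of their libraries were as high as the stromal progenitors of myeloma-bearing mice or higher. Healthy osteoprogenitors had 82.7 in L, 18.6 in M, 67.0 in N and 51.3 in O, and those of myeloma-bearing mice had 31.5 in D, 147 in G, 161 in I and 35.1 in J. The 2 osteoprogenitor groups overlapped. Endothelial cells had 101 in C, 0 in L, 96.4 in M, 65.8 in N and 333 in O in healthy and 0.0796 in D, 75.8 in E, 68.4 in G, 0 in I and 64.7 in J in myeloma-bearing mice, so that a library of the healthy group and 2 of the myeloma-bearing group had almost none. Myeloma cells had at most 5.27 RPKM, in bone lining library E, and at most 0.0984 in the others.

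Hp was set beside Adipoq library by library, as the plot of the pair shows. Of 10 endothelial libraries 7 had more than 10 RPKM of both genes, 2 of neither and 1, library I, of Adipoq alone. Of 10 stromal progenitor libraries 3 had both, 2 had Hp alone and 5 had neither. In osteoprogenitors 7 of 8 libraries had both and 1 had Hp alone. Over all 38 libraries Pearson's r of log2(RPKM + 1) was 0.86, and within the endothelial, stromal progenitor and osteoprogenitor libraries it was 0.84, 0.74 and 0.67. These are descriptions over libraries that differ in cell type and condition. The choice of Hp fixed part of the split in stromal progenitors, since the 5 libraries with neither gene were the healthy ones in which Hp was chosen for being low, and these libraries also enter the values over all 38.

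**Figure D1:**
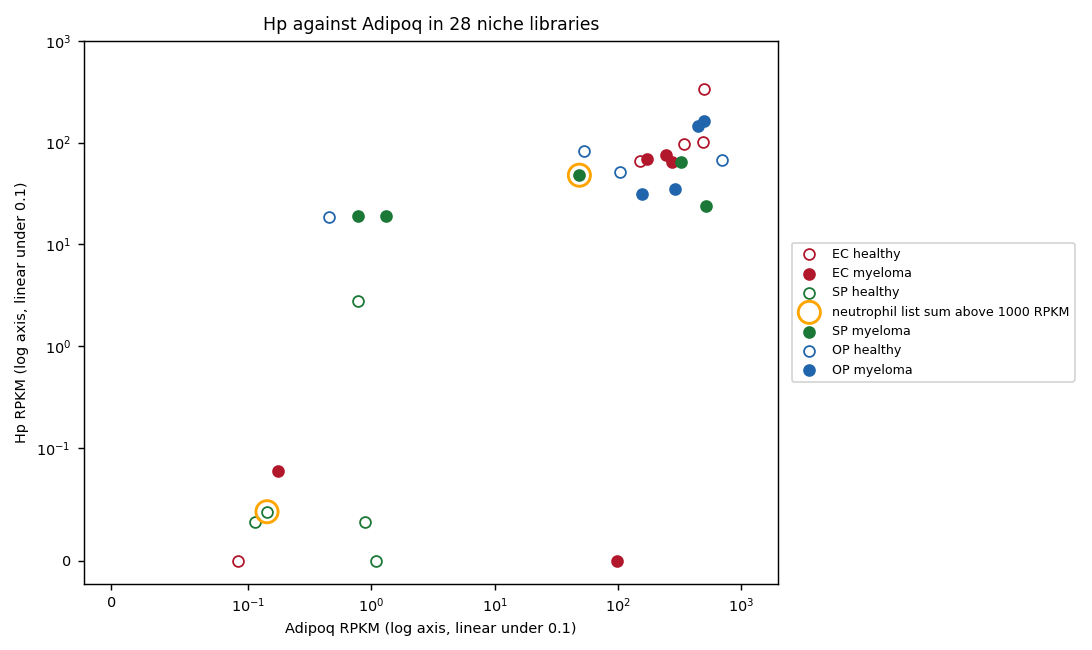
Hp against Adipoq, both in RPKM on log axes that are linear under 0.1, in the 28 endothelial (EC), stromal progenitor (SP) and osteoprogenitor (OP) libraries; filled points are myeloma-bearing mice. Rings mark the 2 libraries with 7333 and 8081 RPKM of summed neutrophil genes, which lie at 0.0436 and 47.7 RPKM of Hp.

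Apoe was at 265 RPKM or more in every endothelial and osteoprogenitor library and varied among stromal progenitors. Healthy stromal progenitors had 381 in C, 14.2 in L, 24.2 in M, 4.76 in N and 233 in O, and those of myeloma-bearing mice had 755 in D, 573 in E, 108 in G, 152 in I and 1056 in J. The groups overlapped, since healthy libraries C and O exceeded myeloma-bearing libraries G and I. Osteoprogenitors had 958 in L, 875 in M, 1181 in N and 797 in O in healthy and 431 in D, 969 in G, 608 in I and 2573 in J in myeloma-bearing mice. Endothelial libraries were at 265 to 821, and myeloma cells at 0.397 to 25.7.

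Lpl, the lipase itself, was called in no comparison. It was 109.6 in C, 100.2 in L, 57.0 in M, 5.95 in N and 54.9 in O in healthy endothelial cells and 31.7 in D, 78.9 in E, 55.4 in G, 16.0 in I and 2.35 in J in those of myeloma-bearing mice. Stromal progenitors had 60.5 in C, 21.7 in L, 39.7 in M, 0.0226 in N and 93.6 in O in healthy and 85.2 in D, 41.5 in E, 53.4 in G, 130.4 in I and 7.35 in J in myeloma-bearing mice. Osteoprogenitors had 21.0 in L, 15.1 in M, 57.0 in N and 0.0403 in O in healthy and 15.6 in D, 42.5 in G, 44.8 in I and 38.1 in J in myeloma-bearing mice. A healthy stromal progenitor library and a healthy osteoprogenitor library held no more than 3 reads, while the remaining 26 libraries had at least 2.35 RPKM. Of the 10 myeloma cell libraries, 9 were at or below 0.0387 and 1 was at 1.09.

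Cd36 and Fabp4 were highest in the endothelial libraries. Cd36 was 908 in C, 1039 in L, 1351 in M, 429.5 in N and 361 in O in healthy and 194 in D, 698 in E, 804 in G, 1133 in I and 224 in J in myeloma-bearing endothelial cells, and at most 5.43 in the 28 libraries of the other cell types. Fabp4, which capillary endothelial cells also make, was 9238 in C, 17260.0 in L, 20169 in M, 13208 in N and 5211 in O in healthy endothelial cells and 9641 in D, 12612 in E, 15387 in G, 9834 in I and 7304 in J in those of myeloma-bearing mice. Every endothelial library was thus above every other library in both genes. Below the endothelial level Fabp4 still varied: stromal progenitors had 47.2 in C, 7.04 in L, 11.7 in M, 5.72 in N and 2.86 in O in healthy and 182 in D, 7.04 in E, 158 in G, 1.88 in I and 176 in J in myeloma-bearing mice, so libraries D, G and J were above every healthy library and E and I were not. Osteoprogenitors had 2.72 to 10.1 in healthy and 2.97 to 39.6 in myeloma-bearing mice, and myeloma cells 0 to 6.06. In the stromal progenitor libraries the endothelial marker sum was 0.340 to 9.68 RPKM. The sort of these libraries gated out cells with CD31, and the part of endothelial RNA in the Fabp4 reads was not tested.

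**Figure D2:**
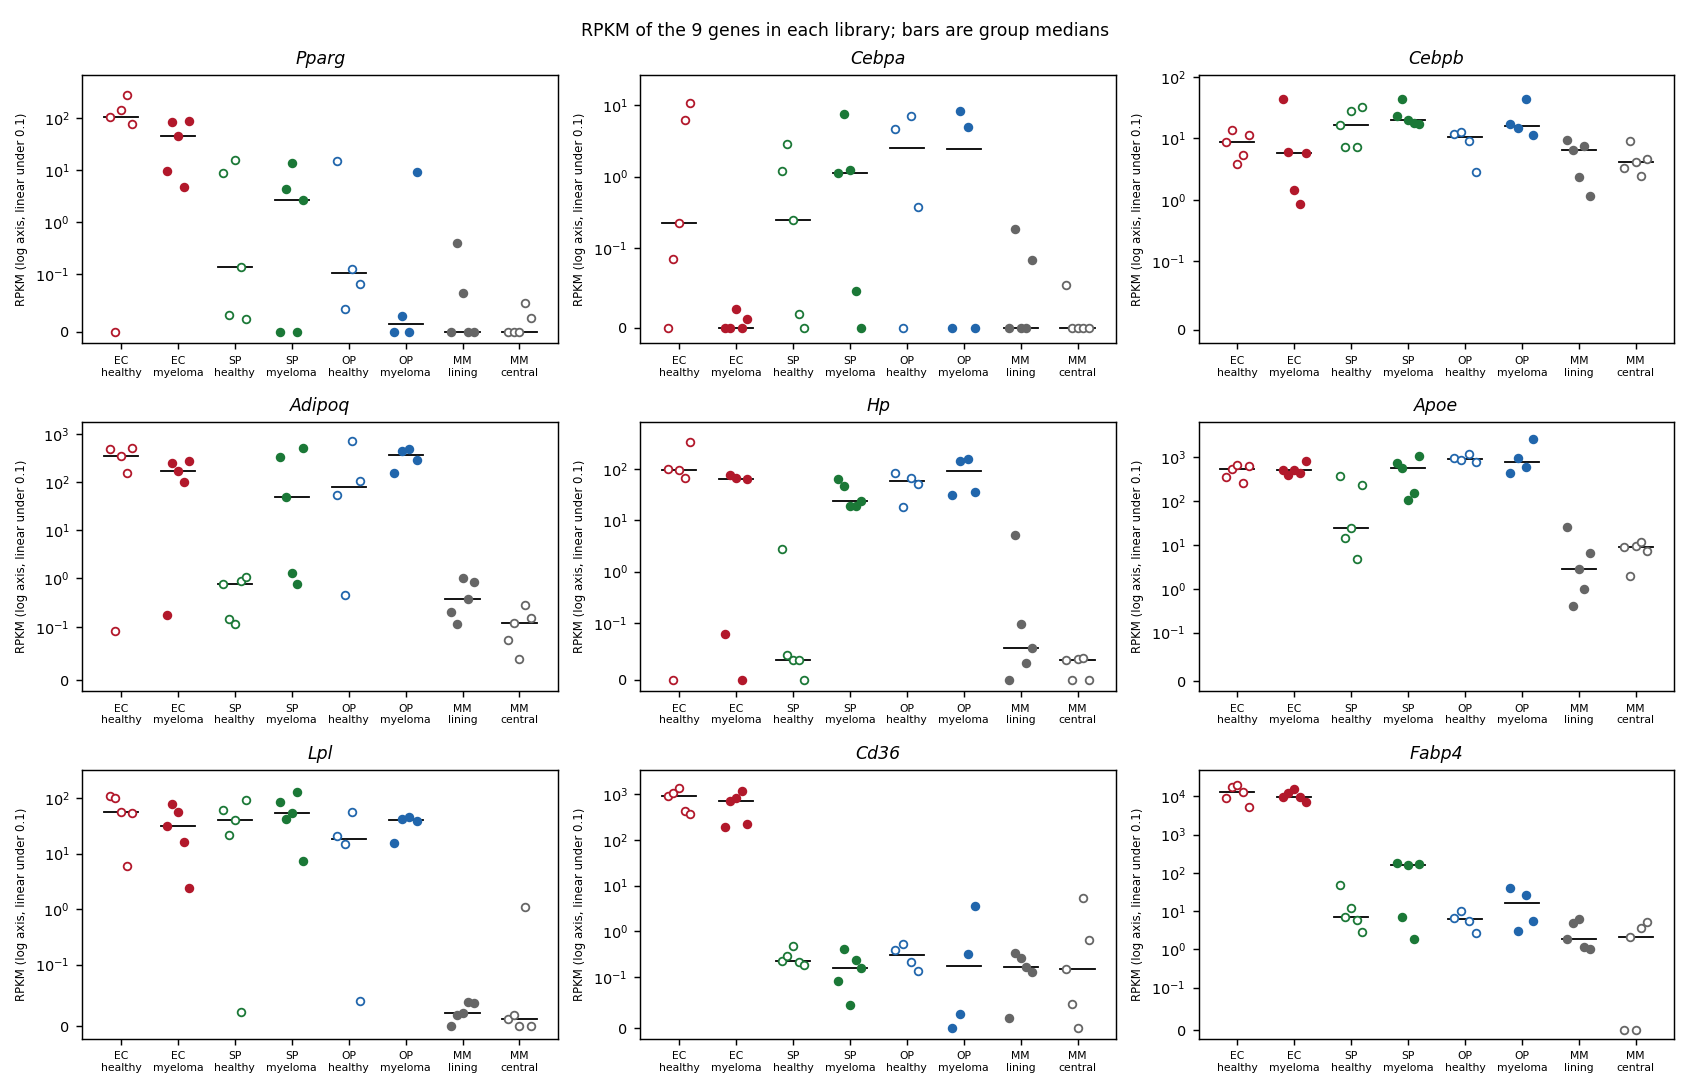
RPKM of the 9 genes in each library, by group, on log axes that are linear under 0.1; bars are medians, filled points are myeloma-bearing mice or bone lining myeloma cells (MM). Cd36 and Fabp4 separated endothelial cells (EC) from all other groups, whereas Adipoq and Hp were at most 1.09 and 2.79 in healthy stromal progenitors (SP) and at least 18.6 in osteoprogenitors (OP) except for Adipoq in 1 library.

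The first comparison asked which genes differed between healthy and myeloma-bearing mice within a cell type. In stromal progenitors no gene was called by limma (0% of 8747 tested, 437 with an unadjusted p below 0.05), nor by voom-limma on recovered reads. Among the 7 members tested, Hp aside, the difference of Adipoq was 4.38 (SE 1.41) with an adjusted p of 0.811 by limma, and that of Apoe 3.05 (SE 0.97) with an adjusted p of 0.811. These 2 were the only members with an unadjusted p below 0.05 by limma, at 0.00628 for Adipoq and 0.00566 for Apoe, and neither passed the correction over all genes. Adipoq exceeded 1 RPKM in 4 libraries of the myeloma-bearing group and in 1 healthy library. It thus passed the filter only through the group in which it was high, and nothing is read from its p. Cd36 was too low to be tested. Adipoq was above every healthy library in 4 of 5 libraries of the myeloma-bearing mice, and Apoe in 3 of 5. Without the 2 libraries high in neutrophil genes no member was called either.

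In osteoprogenitors 1 of 8664 genes was called (0.0115%), and it was no member. None of the 7 members tested had an unadjusted p below 0.05, and voom-limma called none. In endothelial cells no gene was called by limma (0% of 7880 tested, 414 with an unadjusted p below 0.05; 1 gene by voom-limma), and none of the 8 members tested had an unadjusted p below 0.05; a voom-limma fit over all 38 libraries called Cd36, at -1.06 with an adjusted p of 0.0794. In myeloma cells, bone lining against central marrow, 18 of 8857 genes were called (0.203%). Only Cebpb, Apoe and Fabp4 were high enough there to be tested, and limma and voom-limma called none of them (0 with an unadjusted p below 0.05).

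Whether the response differed between cell types was tested as an interaction. For stromal progenitors against osteoprogenitors 0% of 10735 genes were called by limma (437 with an unadjusted p below 0.05, 0 called by voom-limma), and for endothelial cells against stromal progenitors 0% of 10596 genes (552 with an unadjusted p below 0.05, 0 called by voom-limma). The response of Apoe in stromal progenitors minus that in osteoprogenitors was 3.12 (SE 1.30) in log2(RPKM + 1), with an adjusted p of 1.00 by limma. The response of Adipoq in endothelial cells minus that in stromal progenitors was -5.06 (SE 2.42), with an adjusted p of 0.946 by limma. For Apoe the same difference was -2.88 (SE 1.20), with an adjusted p of 0.909 by limma. These were the only members with an unadjusted p below 0.05, and no member was called by limma or voom-limma. As a description, the response of Hp in stromal progenitors was 4.00 above that in osteoprogenitors. Hp was chosen for its rise in stromal progenitors, so the choice fixed part of this value and nothing is read from it.

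The second comparison asked how the members differed between cell types, separately in healthy and in myeloma-bearing mice. The largest differences were of Fabp4 and Cd36. Healthy endothelial cells exceeded stromal progenitors by 10.12 (SE 0.62) in Fabp4, with an adjusted p of 7.63e-08 by limma, and by 9.15 (SE 0.64) in Cd36, with an adjusted p of 2.84e-07. In myeloma-bearing mice the differences were 8.01 (SE 0.97) for Fabp4 and 8.69 (SE 0.69) for Cd36. Against osteoprogenitors they were 10.76 (SE 0.48) and 9.10 (SE 0.66) in healthy mice and 9.67 (SE 0.60) and 8.28 (SE 0.74) in myeloma-bearing mice. All of these calls held without any single library. In voom-limma on recovered reads none of these 8 calls passed (adjusted p 0.154 to 0.683), with differences of 8.30 to 11.35. Cd36 had to differ once tested, since the endothelial libraries carried it past the filter: among stromal progenitors and osteoprogenitors it exceeded 1 RPKM in a single library, J of osteoprogenitors of myeloma-bearing mice, at 3.55.

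Against endothelial cells Pparg passed the filter only through the endothelial libraries. It exceeded 1 RPKM in 2 healthy and 3 myeloma-bearing stromal progenitor libraries and in 1 osteoprogenitor library of each condition. Limma called it higher in endothelial cells in all 4 comparisons, but with no filter the call was made only against osteoprogenitors of myeloma-bearing mice (adjusted p 0.0602) and not in the others (0.191 and 0.165 in healthy mice and 0.120). Its difference was 4.13 (SE 1.44) from stromal progenitors and 4.58 (SE 1.55) from osteoprogenitors in healthy mice, with adjusted p of 0.0766 and 0.0760 by limma. In myeloma-bearing mice it was 3.23 (SE 1.05) and 4.03 (SE 1.10), with adjusted p of 0.0583 and 0.0251. Only the last call held without any single library, and voom-limma on recovered reads made neither call in healthy mice (adjusted p 0.209 and 0.241). In healthy mice the call against stromal progenitors was lost without endothelial library C, M, N or O or stromal progenitor library L, N or O (adjusted p 0.136 to 0.172), and that against osteoprogenitors without endothelial library C, M, N or O or osteoprogenitor library M, N or O (0.132 to 0.179). In myeloma-bearing mice the call against stromal progenitors was lost without endothelial library E, G or J or stromal progenitor library D or I (0.121 to 0.138).

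Limma called Adipoq and Apoe lower in healthy stromal progenitors than in both other healthy populations. Adipoq exceeded 1 RPKM in a single healthy stromal progenitor library, O at 1.09, so it was tested only through the populations in which it was high. Adipoq was 6.11 (SE 1.43) higher in healthy endothelial cells than in healthy stromal progenitors, with an adjusted p of 0.0102 by limma, and Apoe was 3.37 (SE 0.98) higher, with an adjusted p of 0.0342. Healthy stromal progenitors minus osteoprogenitors gave -4.98 (SE 1.37) for Adipoq, with an adjusted p of 0.0762 by limma, and -4.37 (SE 0.97) for Apoe, with an adjusted p of 0.0254. All 5 stromal progenitor libraries lay below all 4 osteoprogenitor libraries in Apoe. The other groups overlapped: endothelial library L (0.0924) was below every stromal progenitor library in Adipoq and osteoprogenitor library M (0.450) was within their range, and stromal progenitor library C (381) was within the endothelial range of Apoe. The Adipoq call against osteoprogenitors was lost without stromal progenitor library C, L, M or N (adjusted p 0.114 to 0.133), and without osteoprogenitor library L, N or O or stromal progenitor library O Adipoq was not tested, because fewer than 4 libraries were then above 1 RPKM. With no filter the Adipoq call against endothelial cells was still made (adjusted p 0.0473), that against osteoprogenitors was lost (0.236) and both Apoe calls were lost (0.116 and 0.176), and by voom-limma both Adipoq calls (0.109 and 0.339). In myeloma-bearing mice limma called neither gene between stromal progenitors and osteoprogenitors or endothelial cells; Adipoq in stromal progenitors minus osteoprogenitors was -3.30 (SE 1.37), with an adjusted p of 0.310 by limma and of 0.0993 by voom-limma. As a description, stromal progenitors minus osteoprogenitors gave -5.20 for Hp in healthy and -1.21 in myeloma-bearing mice. Hp was chosen for its rise between these stromal progenitor groups, so the choice fixed part of the change between these values.

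As a description, 5 of the 8 members tested were higher in healthy endothelial cells than in stromal progenitors, where 17.3% of 8457 genes were called in either direction, and 3 of 9 higher than in osteoprogenitors, where 16.5% of 8258 were. In myeloma-bearing mice 3 of 7 were higher than in stromal progenitors and 3 of 8 higher than in osteoprogenitors, against 16.1% and 17.7% of all genes. Between stromal progenitors and osteoprogenitors 2 of 6 members were lower in healthy mice, against 3.58% of 8707 genes called, and 0 of 7 in myeloma-bearing mice, against 3.35% of 8793, where leaving out single osteoprogenitor libraries brought the genes called down to as few as 181 of 312 and 142 of 295 (1 member of the latter had an unadjusted p below 0.05, and voom-limma called 1). Nothing is read from any of these counts, because some members were tested only through the populations in which they were high. These were Cd36 and Pparg in comparisons with endothelial cells and, in healthy mice, Adipoq. Apoe in healthy endothelial cells minus osteoprogenitors was -1.005 (SE 0.37), with an adjusted p of 0.104 by limma, and passed without endothelial library L, M or O (0.0756 to 0.0864). Cebpb in endothelial cells minus stromal progenitors of myeloma-bearing mice was -1.93 (SE 0.90), with an adjusted p of 0.208, and passed without endothelial library D (0.0518) and, on all 38 libraries, by limma (0.0373) and voom-limma (0.0403).

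**Figure D3:**
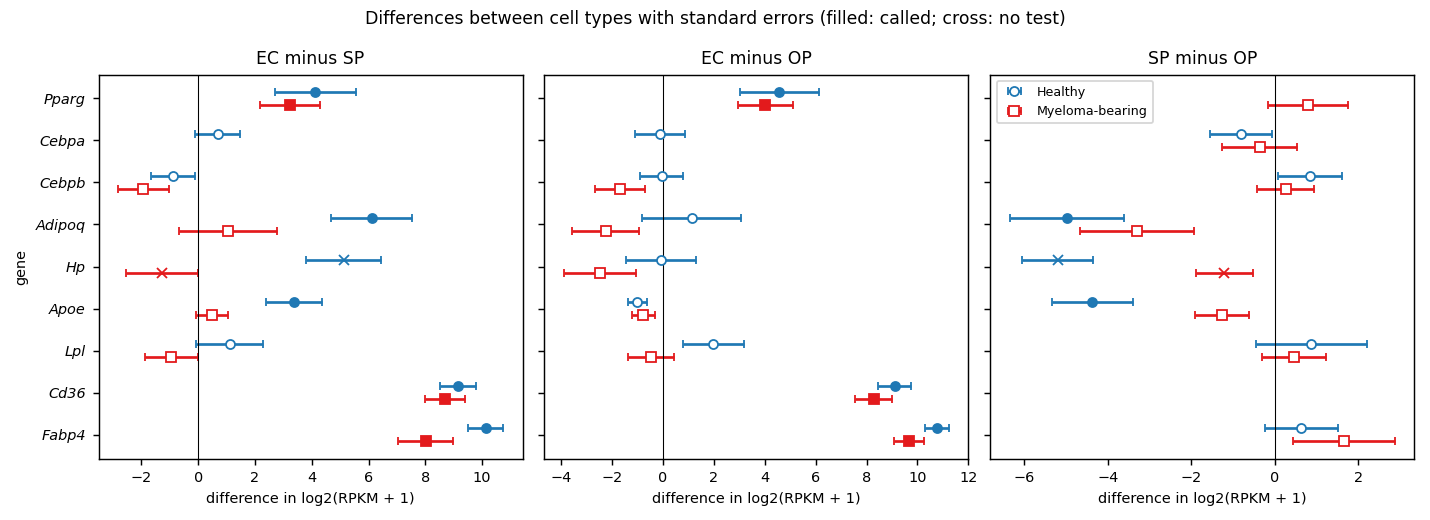
Differences in log2(RPKM + 1) between cell types for the 9 genes, with standard errors; filled symbols passed the test, open ones did not, and crosses were not tested. Fabp4 and Cd36 lay between 8.01 and 10.76 in every comparison of endothelial cells (EC) with stromal progenitors (SP) or osteoprogenitors (OP).

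Because Adipoq and Hp are known from mesenchymal cells and fat cells, their presence in CD31-sorted libraries was set beside other markers. Dcn was 5.14 to 57.3 RPKM and Lum 0.310 to 14.8 in endothelial libraries, against at least 718 of Lum in every stromal progenitor and osteoprogenitor library. Col1a1 was 0.373 to 28.6 in endothelial libraries, highest in J, against at least 162 in the other 2 populations. The summed level of 10 osteoblast lineage genes was 411 in endothelial library I and 719 in J. It was 21.4 to 154 in the remaining endothelial libraries and at least 961.5 in stromal progenitors. A list of 15 genes of marrow stromal cells that can form fat, such as Lepr and Cxcl12, summed to 442 to 1127 RPKM in endothelial libraries, 107 to 910 in stromal progenitors and 181 to 871 in osteoprogenitors. The sum does not measure stromal content, since the list also holds genes that were higher in endothelial cells, such as Kitl at 97.8 to 284 RPKM in healthy endothelial cells and 0.0168 to 8.54 in healthy stromal progenitors. Of these 15 genes, 6 were above 1 RPKM in endothelial library L, 14 in J and 8 to 11 in each of the others. Cxcl12 was 125 to 472 RPKM in all endothelial libraries. Only 4 of the 15 genes are given by library. Lepr, Ebf3, Foxc1 and Vcam1, named after their values were seen, ranged from 0.0922 to 42.6, from 0 to 33.5, from 0.0643 to 17.6 and from 0 to 221 RPKM. Library L, low in Adipoq, had 1.94 of Lepr, 0 of Ebf3, 0.20 of Foxc1 and 0 of Vcam1, whereas library D, also low in Adipoq, had 26.8, 33.5, 9.10 and 134. Among libraries high in Adipoq, C had 32.1, 27.1, 17.6 and 144, while N had 0.0922 of Lepr and 0 of Ebf3 with 16.0 of Foxc1 and 116 of Vcam1. Library M had 38.9, 29.8, 0.0643 and 185, O had 31.5, 0.689, 7.86 and 221, E had 2.55, 0, 0.292 and 25.5, G had 42.6, 0.0122, 4.16 and 178, I had 3.96, 11.9, 4.24 and 148, and J had 37.8, 10.7, 12.6 and 65.5 RPKM of Lepr, Ebf3, Foxc1 and Vcam1. The part of stromal RNA in the Adipoq and Hp levels was not tested.

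**Figure D4:**
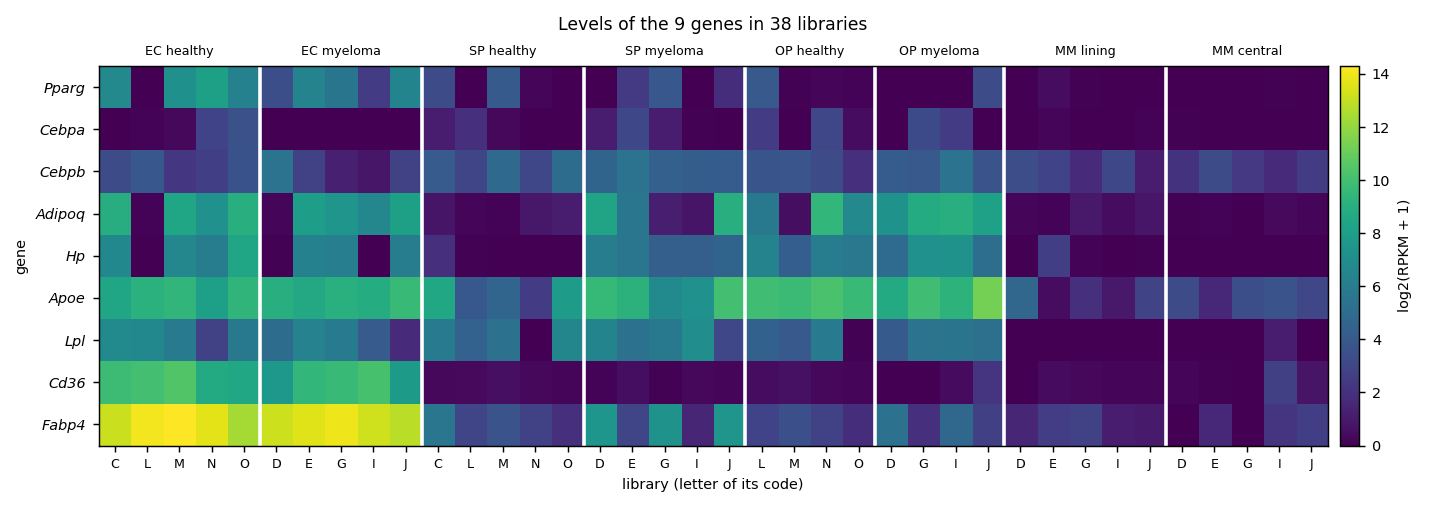
Levels of the 9 genes as log2(RPKM + 1), shown by colour, in all 38 libraries; columns are libraries, ordered by group and letter. Myeloma cells (MM) were dark apart from low levels of Cebpb, Apoe and Fabp4 and some libraries of Hp, Lpl, Adipoq and Cd36. Adipoq and Hp were both dark in healthy endothelial library L and myeloma-bearing endothelial library D.

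The members were also read beside wider gene lists, none of which had a called gene in any comparison of healthy with myeloma-bearing mice. In stromal progenitors the 14 marrow stromal genes tested had a median difference of 1.20, against -0.00 for all genes. An unadjusted p below 0.05 by limma was found for 3 of these 14, and for 437 of all 8747 genes tested. Of the other lists, adipogenic transcription factors had 12 genes tested with a median of 0.33, adipocyte secreted genes 8 with 0.74, lipase and fatty acid uptake genes 14 with 0.00, synthesis and storage genes 15 with -0.34, cholesterol transport genes 11 with -0.34, and acute phase and complement genes 16 with 0.08. In these lists, in the same order, 1, 2, 1, 2, 0 and 0 genes had an unadjusted p below 0.05. In osteoprogenitors the medians of the 7 lists lay between -0.13 and 0.45, and in endothelial cells between -0.38 and 0.44.

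Between cell types the lists are described by their calls and levels. List genes near 0 in a population, such as Tcf15, Fasn, Agpat2, Serpina3n and Serpina3g here, were tested only through the population in which they were high, so nothing is read from the counts. Of 15 genes around lipoprotein lipase tested between healthy endothelial cells and stromal progenitors, 5 were higher and 2 lower, where over all 8457 genes 566 were higher and 899 lower (17.3% called). Gpihbp1, which holds lipoprotein lipase on the capillary wall, was 3086 to 6202 RPKM in healthy endothelial cells and 1.63 to 5.17 in stromal progenitors, a difference of 9.98 (SE 0.47). Lrp1, a receptor that clears lipoprotein remnants, was at most 1.29 in endothelial cells and 18.5 to 52.7 in stromal progenitors. Tcf15, an endothelial regulator of fatty acid uptake acting with Meox2, was at 0 to 154 and at most 0.0984 in the same groups. Between healthy stromal progenitors and osteoprogenitors, Meox2 was higher by 3.26 (SE 0.68) and Cav1, a structural gene of caveolae, by 2.07 (SE 0.43), while the difference of Lmf1, which matures lipases, was -3.76 (SE 1.00).

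Of 14 synthesis and storage genes tested between healthy endothelial cells and stromal progenitors 3 were lower (Scd1, Agpat2 and Fasn) and 1 was higher (Mgll), and of 14 in myeloma-bearing mice against osteoprogenitors 5 were lower and 2 higher. Over all genes 899 were lower and 566 higher in the first, and 824 lower and 709 higher of 8667 in the second (17.7% called), where with any 1 osteoprogenitor library left out 344 to 437 were lower and 506 to 552 higher. Scd1, which desaturates fatty acids, was 0.0358 to 8.86 RPKM in healthy endothelial cells and 33.9 to 94.9 in stromal progenitors. Fasn, the fatty acid synthase, was at most 0.0229 and 2.94 to 10.3. The same direction held for Rbp4, the retinol carrier that fat cells secrete, at 0.264 to 28.8 in healthy endothelial cells and 62.7 to 556 in stromal progenitors. In cholesterol transport Scarb1, an HDL receptor, was 4.89 to 101 in healthy endothelial cells against 0.0144 to 2.70, and Abcg1, an exporter, was higher by 3.23 (SE 1.02), whereas 4 genes were lower, among them Hmgcs1, Npc1 and Srebf2.

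Of 17 acute phase and complement genes, the group to which Hp also belongs, tested between healthy endothelial cells and stromal progenitors 6 were lower and 2 higher, and of 17 in myeloma-bearing mice 7 were lower and 1 was higher. Over all genes 899 were lower and 566 higher in the first and 795 lower and 617 higher of 8749 in the second (16.1% called). Serpina3n, a protease inhibitor, was at most 0.0546 RPKM in healthy endothelial cells and 36.2 to 165 in stromal progenitors. Lbp, the carrier of lipopolysaccharide, was 2.05 to 69.2 in endothelial cells and 324 to 696 in stromal progenitors of myeloma-bearing mice. Between healthy stromal progenitors and osteoprogenitors C3, the central complement component, was higher by 3.84 (SE 0.88) and C1s by 3.39 (SE 0.79), in the direction opposite to Apoe and Adipoq.

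The genes whose pattern was most like that of a member were listed by Pearson's r of log2(RPKM + 1), as descriptions over libraries that share cell types. Over all 38 libraries Hp was most like Adipoq (0.86), Gstm2 (0.78), Adamts9 (0.76), Nrp2 (0.74) and Vcam1 (0.73), and Adipoq was most like Hp, Nrp2, Adamts9, Tmem176b and Vcam1 (0.77 to 0.86). Fabp4 was most like Sncg, Emcn, Tmem88, Gpihbp1 and Cd300lg (0.94 each). Lpl was most like Sgk1, Serpinb6a, Irf2bp2, Cxcl12 and Slc6a6 (0.83 to 0.84). Over the 18 libraries of stromal progenitors and osteoprogenitors Hp was most like H2-K1 (0.89), Adipoq (0.80), Irf1 (0.79), Ifi47 (0.79) and Apoe (0.79). Since 10 of these 18 libraries are the stromal progenitors in which Hp was chosen for its rise, genes higher there in myeloma-bearing mice rank high by construction. There Adipoq was most like Tanc1, H2-K1, Gucy1a3, Hp and Gdpd2 (0.79 to 0.83).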

How the data were processed

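Pools of 100 sorted cells were sequenced by SmartSeq2, a full-length cDNA method. Per the labels and the submitters' processing notes, the authors aligned reads with STAR 2.4.0 to GRCm38 (mm10), counted them per gene with featureCounts (Subread 1.4.5-p1) at its default settings, which do not use strand, used edgeR and deposited 1 table of RPKM values for 13260 genes in 38 libraries. The deposited RPKM steps gave whole reads for all 13260 genes (tolerance 0.001), from which depth was taken; intervals and floors cover counting error only. Comparisons used limma 3.58.1 in R 4.3.3 with a mean-variance trend on log2(RPKM + 1), only the libraries compared, genes that exceeded 1 RPKM in 4 or more of these, and Benjamini-Hochberg adjustment over all genes tested; a call needed an adjusted p below 0.1 and an absolute difference above 1. The scripts were tested on simulated data. Alternatives were a pseudocount of 0.1, no filter, a fit over all libraries, median-of-ratios scaling, an adjusted p below 0.05, voom-limma on recovered reads with median-of-ratios library sizes, a replicate block, and leaving out each library. Leaving out the 2 stromal progenitor libraries high in neutrophil genes was chosen after seeing the data. The members and gene lists were chosen with earlier results of these data known. All members were described; of other genes, up to 3 per list and direction with the largest called difference were named, and the 5 most alike by Pearson's r. Positions are from GENCODE and promoters from RefSeq.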

Additional observations from a re-analysis of the deposited data

Results flagged for a closer look

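In 12 of the 60 combinations of gene and group in which a library reached 1 RPKM, the lowest or highest library lay further from the rest than Dixon's test at the 95% level allows; chance flags about 1 in 20 groups of normally distributed values, and RPKM of genes that are either near 0 or high are not so distributed. Library L of healthy endothelial cells was far below the others in 3 genes: it held 0 RPKM of Hp against 65.8 to 333, 0.0924 of Adipoq against 152 to 501, and 0 of Pparg against 77.4 to 275. Library D of endothelial cells of myeloma-bearing mice held 0.174 of Adipoq against 97.9 to 274. Library N of healthy endothelial cells held 5.95 of Lpl against 54.9 to 110, and library D of osteoprogenitors of myeloma-bearing mice held 15.6 of Lpl against 38.1 to 44.8.

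Other libraries were far above their group. Library C of healthy stromal progenitors held 2.79 RPKM of Hp, while the other 4 held at most 0.0436. Pparg was 14.6 in library L of healthy osteoprogenitors against at most 0.124, and 9.08 in library J of osteoprogenitors of myeloma-bearing mice against at most 0.0274. In myeloma cells Hp was 5.27 in bone lining library E against at most 0.0984, and central marrow library I held 1.09 of Lpl against at most 0.0183 and 5.43 of Cd36 against at most 0.657.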

How the results depend on the processing

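Counts of members called by limma moved with the setting. Between healthy stromal progenitors and osteoprogenitors 2 members were called, against 1 with a pseudocount of 0.1, an adjusted p below 0.05, voom-limma on the libraries compared or on all 38, or without both libraries high in neutrophil genes, and 0 with no filter (1 to 2 without single libraries). Of 5 called between healthy endothelial cells and stromal progenitors, 3 were called with no filter, 1 by voom-limma and 3 by voom-limma on all libraries (4 to 5 without single libraries). Of 3 called between healthy endothelial cells and osteoprogenitors, voom-limma called none and called 1 other member, Apoe (2 to 4 without single libraries). In myeloma-bearing mice voom-limma called 1 of 3 against stromal progenitors (2 to 4 without single libraries) and 1 of 3 against osteoprogenitors, on either set of libraries (3 to 4). Between stromal progenitors and osteoprogenitors of these mice voom-limma called 1 on either set, Adipoq or Apoe, where limma called 0. In the response of endothelial cells voom-limma on all libraries called 1 and the main fit 0. No limma difference printed for a member changed sign under these settings. A quasi-likelihood count test on the recovered reads, chosen after seeing the data, was run and then dropped, so its differences and p-values are not given here. It kept the calls of Fabp4, Cd36 and Adipoq and lost those of Pparg and Apoe, and the difference of Hp between endothelial cells and stromal progenitors of myeloma-bearing mice changed sign. The cause of these changes was not tested.

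Over all genes, limma and voom-limma fits on all 38 libraries called 258 and 303 genes in the response of endothelial cells, 31 and 40 in that of stromal progenitors and 16 and 9 in that of osteoprogenitors, against 0, 0 and 1, and 16 and 9, and 11 and 32, in the interactions, against 0 and 0. The same fits called 2376 and 2529 against 1465 between healthy endothelial cells and stromal progenitors, and 2232 and 2187 against 1361 between healthy endothelial cells and osteoprogenitors; the limma fit called 543 against 295 between stromal progenitors and osteoprogenitors of myeloma-bearing mice, where an adjusted p below 0.05 left 177. Between the myeloma cell niches 18 were called, against 1 with no filter, 7 by voom-limma, 9 by voom-limma on all libraries and 10 without central marrow library D. Other settings moved the counts of the responses and interactions by at most 2. With 1 osteoprogenitor library left out, 567 to 630 genes were called between healthy endothelial cells and osteoprogenitors, and 850 to 964 of 1533 in myeloma-bearing mice. Between stromal progenitors and osteoprogenitors 181, 197 and 183 of 312 were called without healthy osteoprogenitor library L, N or O, and 142 to 165 of 295 without any 1 osteoprogenitor library of myeloma-bearing mice. Of 61 member differences with an unadjusted p of 0.05 or more, for which no size is given, 22 changed sign under some alternative.

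Deviations of same-lettered libraries correlated at -0.02 to 0.10 between cell types and at -0.05 to 0.07 between the myeloma cell niches, with no pair above 0.1. The median r of a comparison was 0.011 to 0.049 for same-lettered and -0.014 to -0.003 for different-lettered libraries, and in every comparison the same-lettered median was higher. The letters were not used as pairs in the main fits, and a replicate block was an alternative. With a replicate block the count between healthy stromal progenitors and osteoprogenitors was 1, since Adipoq was lost (-5.03, adjusted p 0.105 by limma), and Pparg was lost between healthy endothelial cells and osteoprogenitors (4.31, adjusted p 0.192); no other member call changed.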
